A study of Mus musculus with 25 samples.

Results

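The genes described here are the matrix metalloproteinases (Mmp), the secreted ADAM proteases with thrombospondin motifs (Adamts) and the tissue inhibitors of metalloproteinases (Timp) of the mouse. They were taken by symbol, as every gene of the count table named Mmp, Adamts or Timp with a number, which gave 46 of 24984 genes, namely 23 Mmp, 19 Adamts and 4 Timp genes. Their levels were followed in hepatic progenitor cells that carry different amounts of oncogenic Ras, and in the tumour and stromal cells of the tumours that such cells form in mice.

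Mmp enzymes are zinc-dependent endopeptidases that cut collagens, gelatin, elastin, proteoglycans and many cell surface proteins, and most of them are made as proenzymes that have to be cleaved to become active. Adamts enzymes are related secreted proteases, of which some trim the ends of procollagens and others cut proteoglycans such as aggrecan and versican. Timp proteins bind Mmp enzymes in their active site and block them, and Timp3 also blocks several Adamts enzymes. In the liver and in tumours, much of this matrix turnover is known to be carried by fibroblasts, macrophages and neutrophils as well as by the epithelial tumour cells.

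RNA sequencing covered 25 libraries in 7 groups. The cultured cells were BMEL, a clonally derived line of bipotential mouse embryonic liver cells from a C57BL/6 x C3H embryo, grown exponentially on collagen-coated plates. BMEL WT carried an empty vector (n = 3), and RasLOW (n = 3) and RasHIGH (n = 3) carried the human HRasG12V oncogene on a vector that also encodes a fluorescent protein. The RasLOW and RasHIGH populations were obtained by sorting on fluorescence and overlap in their Ras levels. Cells of this line with the oncogene were injected into the liver of athymic nude mice, which lack mature T cells, and the labels do not say which population each mouse received. From each of 4 mice the tumour in the liver and the tumour in the peritoneal cavity were dissociated and sorted by green fluorescence into tumour cells and fluorescence-negative stromal cells. This gave liver tumour cells, peritoneal tumour cells, liver stromal cells and peritoneal stromal cells (n = 4 each), with the mouse as the replicate number. The study's methods name 3 independent samples for the cell lines and 4 for the sorted tumour cells. The 4 sorted groups came from the same mice, and the main tests did not pair them by mouse.

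The files hold raw counts of reads per gene, with totals between 20818989 and 51241336 reads per library. Levels are given as CPM, the read counts scaled to library size and corrected by the trimmed mean of M-values (TMM) over all 25 libraries. A count of 3 reads, the limit that a count of 0 allows, corresponds to 0.0572 to 0.143 CPM depending on the library, which covers counting error only. Differences were tested with edgeR's quasi-likelihood test, with adjusted p-values over all genes tested. A gene was tested where enough of the libraries compared passed a count filter, so high levels in a single group sufficed. A gene was called when its adjusted p was under 0.05 and its absolute log2 fold change was above 1.5 in cultured cells or above 1 in sorted cells. The markers of epithelial cells (Epcam, Krt8, Krt18, Krt19 and Cdh1) summed to between 6920 and 10800 CPM in every cultured and tumour library, against 675 to 1550 CPM in the stromal libraries, so the stromal cells were not free of them. At both sites 4 of the 5 were higher in tumour than in stromal cells. Epcam was lower, at means of 0.0669 and 0.0488 CPM in liver and peritoneal tumour cells against 5.69 and 4.45 CPM in stromal cells. Leukocyte Ptprc stood at 507 to 1030 CPM in stromal libraries and at 1.05 to 2.64 CPM in tumour libraries except the peritoneal tumour cells of mouse 1, where it was 12.2 CPM. The same library held more of all 7 fibroblast markers (summed level 1450 CPM against 211 to 323 CPM in the other mice), all 6 macrophage markers and all 7 neutrophil markers. Members called between the tumour sites are given with and without that library. The deposited counts are of mouse genes, and mouse Hras (66.9 to 79.9 CPM on average in the cultured groups) therefore does not check the human transgene.

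The summed level of the 46 genes averaged 1570 CPM (BMEL WT), 1320 CPM (RasLOW) and 1010 CPM (RasHIGH). It was 1290 CPM in liver tumour cells, 1500 CPM in peritoneal tumour cells, 4010 CPM in liver stromal cells and 7440 CPM in peritoneal stromal cells. The number of genes with a mean of at least 1 CPM was 19 in BMEL WT, 12 in RasLOW and 13 in RasHIGH, and it was 36 in peritoneal stromal cells. Stromal cells of both sites thus carried more of these transcripts in sum, from more of the genes, than any culture or sorted tumour population. Per kilobase of exon, so that genes can be set side by side, Timp2 and Mmp14 held the top 2 ranks in the cultured and tumour cells, in either order, with Timp2 at 203 CPM per kb and Mmp14 at 121 CPM per kb in BMEL WT. In liver stromal cells the order began with Mmp14 (241 CPM per kb), Mmp12 (157), Mmp9 (127), Timp1 (126) and Mmp13 (119). In peritoneal stromal cells it began with Timp1 (526 CPM per kb), Mmp14 (507) and Mmp2 (319). Mmp14 encodes the membrane-bound protease that activates proMmp2 together with Timp2, and it was among the leading genes in all 7 groups.

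A single cluster of 427 kb on chromosome 9 (chr9:7272514-7699585, build mm9) holds 10 of the 23 Mmp genes, in the order Mmp13, Mmp12, Mmp1b, Mmp3, Mmp1a, Mmp10, Mmp8, Mmp27, Mmp20 and Mmp7. They encode collagenases, stromelysins, the macrophage elastase and matrilysin among others, and the 2 members called higher in Ras-expressing cultured cells, Mmp13 and Mmp10, both belong to it. RefSeq promoter windows of 300 bases (250 before and 50 after the start of a gene, build GRCm38.p6) were available for 32 of the 46 genes. They were searched for TGANTCA, a pattern that covers TGAGTCA and TGACTCA, the core of the element bound by AP-1. AP-1 is a transcription factor downstream of Ras and mitogen-activated kinases. The pattern also takes other letters at N, as in the TGAATCA of Mmp20, so its counts are not of AP-1 cores alone. The motif is its own reverse complement, so a match counts for both strands. It occurred in 8 of 35 member windows (22.9%), against 7.81% of all 32851 windows in the table. All 8 lay in the cluster. There, Mmp8 and Mmp27 had no window with the motif, and Mmp12 and Mmp7 each had a second window, at another start, without it. The 120 bases that end at the base before the start follow for these 8 genes, to let the position of the motif be compared between Mmp13 and Mmp10 and their neighbours. Capitals mark TGANTCA, and its position is that of its leftmost base counted back from the start.
Mmp13 (chr9:7272394-7272513, + strand, motif at -35): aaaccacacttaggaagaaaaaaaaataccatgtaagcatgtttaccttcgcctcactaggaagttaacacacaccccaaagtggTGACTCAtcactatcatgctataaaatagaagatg
Mmp12 (chr9:7347254-7347373, + strand, motif at -44): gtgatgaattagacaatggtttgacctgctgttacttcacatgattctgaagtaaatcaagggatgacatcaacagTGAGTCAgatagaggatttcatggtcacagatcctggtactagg
Mmp1b (chr9:7388027-7388146, - strand, motif at -93): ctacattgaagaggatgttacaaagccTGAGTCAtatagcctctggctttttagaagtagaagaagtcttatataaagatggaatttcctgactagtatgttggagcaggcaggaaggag
Mmp3 (chr9:7445702-7445821, + strand, motif at -46): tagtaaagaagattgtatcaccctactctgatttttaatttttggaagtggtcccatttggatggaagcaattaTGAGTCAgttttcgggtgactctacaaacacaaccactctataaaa
Mmp1a (chr9:7464021-7464140, + strand, motif at -73): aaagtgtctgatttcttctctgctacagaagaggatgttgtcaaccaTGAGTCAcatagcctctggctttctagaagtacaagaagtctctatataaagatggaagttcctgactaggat
Mmp10 (chr9:7502222-7502341, + strand, motif at -63): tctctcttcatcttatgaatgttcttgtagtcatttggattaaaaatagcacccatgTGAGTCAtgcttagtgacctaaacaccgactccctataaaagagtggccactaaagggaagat
Mmp20 (chr9:7628111-7628230, + strand, motif at -95): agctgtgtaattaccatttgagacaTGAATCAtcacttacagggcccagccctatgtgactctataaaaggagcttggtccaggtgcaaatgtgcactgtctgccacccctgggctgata
Mmp7 (chr9:7691970-7692089, + strand, motif at -63): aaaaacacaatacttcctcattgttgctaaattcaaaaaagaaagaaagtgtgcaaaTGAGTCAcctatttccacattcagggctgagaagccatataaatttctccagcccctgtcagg
The motif therefore stood within 95 bases of the start shown for each of them. A match describes the letters in the window and shows neither binding nor a cause of any change.

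**Figure D1:**
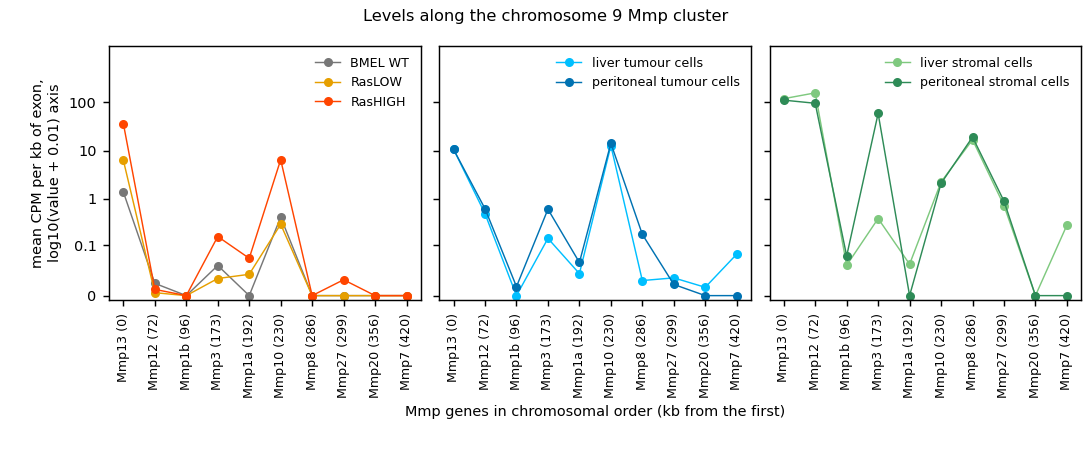
Mean levels (CPM per kb of exon, log axis with 0.01 added) of the 10 Mmp genes of the chromosome 9 cluster, in chromosomal order with the distance of each start from that of Mmp13 in kb, with cultured cells in the left panel, tumour cells in the middle and stromal cells on the right. Mmp13 and Mmp10 stand above their neighbours in the cultured and tumour cells, whereas Mmp12, Mmp8 and, in the peritoneum, Mmp3 are also high in the stromal cells.

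The levels along the cluster differed between neighbouring genes. In RasHIGH cells Mmp13 averaged 36.3 CPM per kb and Mmp10 6.49 CPM per kb, and the next of the 10, Mmp3, averaged 0.157 CPM per kb. Mmp12, with the same motif 44 bases before 1 of its 2 starts and none in the window of the other (chr9:7344147-7344446), averaged 0.025 ± 0.0433 CPM in RasHIGH cells (SD, n = 3) and 1140 ± 180 CPM in liver stromal cells (SD, n = 4). Mmp1a, Mmp1b, Mmp20 and Mmp7 did not exceed 0.842 CPM in any of the 25 libraries. The ends of Mmp12 and Mmp1b overlap on opposite strands by 157 exon bases, and Mmp1b stayed at or under 0.188 CPM.

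In cultured cells, Ras expression went with higher transcript levels of the collagenase Mmp13 and, in RasHIGH, of the stromelysin Mmp10, and with lower levels of Timp3, Mmp2, Mmp24 and several Adamts genes. In RasLOW, 6 of the 21 members tested against BMEL WT were called, 1 higher and 5 lower, where 0.626% of all genes tested were called higher and 2.71% lower. In RasHIGH, 9 of 21 were called, 2 higher and 7 lower, where 3.71% of all genes were called higher and 6.06% lower. Adamts5 and Adamts9, without a read in RasHIGH, and Adamts15, with 1 read there, passed the filter through BMEL WT alone. They could hardly be called higher, and the same holds for Adamts5 in RasLOW, where it had no read. The median log2 fold change of the tested members was -0.91 in RasLOW and -0.68 in RasHIGH, beside medians over all genes of 0.01 and -0.02. Both comparisons share the BMEL WT libraries.

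**Figure D2:**
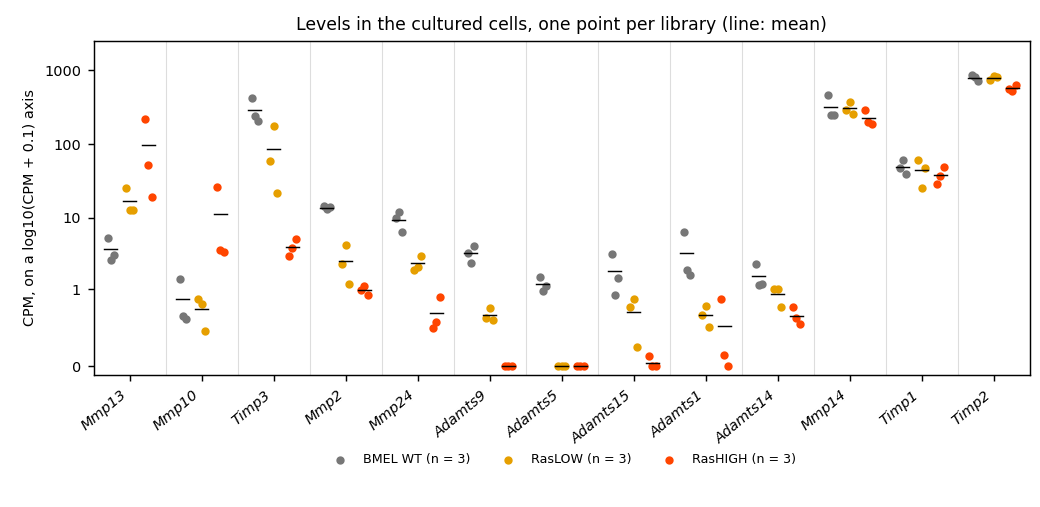
Levels (CPM, on a log10 axis with 0.1 added) of 13 members in cultured BMEL WT, RasLOW and RasHIGH cells, with a point for each library (n = 3 per group) and a line at the mean. Mmp13 and Mmp10 are higher in RasHIGH than in any BMEL WT library, Timp3, Mmp2, Mmp24 and Adamts9 lie below all BMEL WT libraries in RasLOW and RasHIGH, and Mmp14, Timp1 and Timp2 lie within narrow ranges.

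Mmp13 (chr9:7272514-7283333, mm9), a collagenase that cuts fibrillar collagens, stood at 5.36, 2.63 and 3.1 CPM (BMEL WT), 25.1, 12.8 and 12.7 CPM (RasLOW) and 220, 52.6 and 19.5 CPM (RasHIGH). Every Ras library was above every BMEL WT library, while the RasLOW and RasHIGH ranges overlapped and RasHIGH replicate 1 stood far above the other two. The gene was higher in RasLOW (log2 fold change 2.15, SE 0.39, adjusted p = 0.0248) and in RasHIGH (log2 fold change 4.66, SE 0.908, adjusted p = 0.0119). Without BMEL WT replicate 2 the RasHIGH call was lost, at an adjusted p of 0.0517. Mmp10 (chr9:7502352-7510238), a stromelysin that cuts proteoglycans and activates other proenzymes, stood at 1.42, 0.376 and 0.332 CPM (BMEL WT), 0.71, 0.586 and 0.202 CPM (RasLOW) and 26.5, 3.59 and 3.41 CPM (RasHIGH). RasHIGH replicate 1 again held the highest value, and all 3 RasHIGH libraries exceeded the other 6. Mmp10 was called in RasHIGH (log2 fold change 3.91, SE 1.02, adjusted p = 0.0331) and not in RasLOW (-0.53, adjusted p = 0.747). That call was lost without BMEL WT replicate 1 (adjusted p = 0.0529), replicate 2 (0.114) or replicate 3 (0.107). Adamts4, an aggrecan-cutting protease, was at 0.691, 0.855 and 1.22 CPM (BMEL WT), 0.746, 1.07 and 0.807 CPM (RasLOW) and 3.41, 2.52 and 1.75 CPM (RasHIGH). Its RasHIGH values lay above all others, but the log2 fold change of 1.44 (adjusted p = 0.0331) was under the threshold of 1.5.

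Timp3 (chr10:85763117-85812251), the inhibitor that binds to the matrix, was the one Timp gene called in cultured cells. It stood at 425, 243 and 205 CPM (BMEL WT), 58.5, 178 and 21.8 CPM (RasLOW) and 2.96, 3.89 and 5.12 CPM (RasHIGH). The 3 groups did not overlap, and RasLOW spread widely, with replicate 2 near the lowest BMEL WT library. Timp3 fell in RasHIGH (log2 fold change -6.23, SE 0.396, adjusted p = 0.000244) and was not called in RasLOW (-1.77, adjusted p = 0.197) or between RasHIGH and RasLOW (-4.44, adjusted p = 0.103). It shares 1733 of its 8144 exon bases with Syn3 on the opposite strand, whose mean levels were 4.22, 4.69 and 3.41 CPM in the 3 groups. Timp1 and Timp2 were not called. Timp1 was at 47.5, 60.1 and 39.5 CPM (BMEL WT), 61.6, 25.7 and 46.9 CPM (RasLOW) and 28.9, 36.6 and 48.7 CPM (RasHIGH), with overlapping ranges. Timp2 was at 845, 805 and 719 CPM (BMEL WT), 733, 835 and 809 CPM (RasLOW) and 562, 523 and 637 CPM (RasHIGH). All RasHIGH values of Timp2 were below all others, with a log2 fold change of -0.50 against BMEL WT (adjusted p = 0.0368), under the size needed for a call. Timp4 stayed at or under 0.306 CPM in all 25 libraries.

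Mmp2 (chr8:95351227-95377316), the gelatinase that is activated at the cell surface, fell in both Ras populations. It stood at 14.4, 13 and 14 CPM (BMEL WT), 2.27, 4.26 and 1.21 CPM (RasLOW) and 0.975, 1.11 and 0.808 CPM (RasHIGH). Its 3 groups did not overlap, and the log2 fold change against BMEL WT was -2.43 (SE 0.44, adjusted p = 0.0245) in RasLOW and -3.86 (SE 0.22, adjusted p = 0.000158) in RasHIGH. Mmp24, a membrane-type protease, averaged 9.38 ± 2.83 CPM (BMEL WT), 2.34 ± 0.599 CPM (RasLOW) and 0.429 ± 0.291 CPM (RasHIGH) (SD, n = 3). It fell in RasLOW (log2 fold change -2.03, adjusted p = 0.0196) and in RasHIGH (-4.49, adjusted p = 0.00151). Of its 4683 exon bases, 637 are shared with BC029722 on the opposite strand, which averaged 72.6, 39.2 and 22.8 CPM in the 3 groups. The strand setting of the counting is not given in the sources used here, so reads of such partners cannot be told apart where they overlap. The same holds for Adamts9, which shares 1381 exon bases with A730049H05Rik. Fibroblast markers were low in all cultures, and their sum moved with these genes. It was 7.76 to 10.0 CPM (BMEL WT), 1.94 to 5.96 CPM (RasLOW) and 1.03 to 1.35 CPM (RasHIGH). Most of it was Col1a1, at means of 8.28, 3.08 and 0.733 CPM in the 3 groups. None of the others averaged above 0.404 CPM in a cultured group. Of the 7, 4 were lower and 2 higher in RasHIGH than in BMEL WT, which rests mostly on few reads. Hepatocyte markers summed to 14.0 to 55.0 CPM (BMEL WT), 1.63 to 4.95 CPM (RasLOW) and 0.583 to 2.47 CPM (RasHIGH), with 5 of 6 lower and 1 of 6 higher in RasHIGH. Mesothelial markers summed to 1160 to 1340 CPM (BMEL WT), 919 to 2620 CPM (RasLOW) and 552 to 769 CPM (RasHIGH), with 3 of 4 lower and 1 of 4 higher in RasHIGH. The part of these marker levels in the result was not tested.

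Of the Adamts genes, those that fell were Adamts1, Adamts5, Adamts9 and Adamts15, which cut versican or aggrecan, and the procollagen-trimming Adamts14. Adamts9 (chr6:92722693-92893486) stood at 3.32, 2.36 and 4.14 CPM in the controls and 0.355, 0.521 and 0.323 CPM in RasLOW, and no read was counted in the 3 RasHIGH libraries. The groups did not overlap. Adamts9 fell in RasLOW (log2 fold change -3.04, SE 0.416, adjusted p = 0.0114), and its level in RasHIGH was at least 24.2-fold lower, set against 3 reads in a library (adjusted p = 0.00167). Adamts5 (chr16:85858415-85901370) was at 1.49, 0.923 and 1.11 CPM in BMEL WT and had no read in any of the 6 Ras libraries, so it was at least 9.69-fold lower in RasLOW (adjusted p = 0.0132) and at least 8.68-fold lower in RasHIGH (adjusted p = 0.00352). Adamts15 (chr9:30706740-30730037) was at 3.21, 0.821 and 1.48 CPM (BMEL WT), 0.533, 0.716 and 0.0807 CPM (RasLOW) and 0.0375, 0 and 0 CPM (RasHIGH). A total of 1 read in RasHIGH stood against 157 reads in BMEL WT, a 133-fold ratio with an exact 95% interval of 23.6 to 5300 for counting error. Without BMEL WT replicate 1, with the highest level, 64 reads were left and the ratio was 82.2-fold (14.2 to 3300). The fall was called in RasHIGH (adjusted p = 0.00419) and not in RasLOW (log2 fold change -2.05, adjusted p = 0.18). For Adamts1 the values were 6.32, 1.92 and 1.63 CPM (BMEL WT), 0.391, 0.553 and 0.242 CPM (RasLOW) and 0.712, 0.0428 and 0 CPM (RasHIGH). Every Ras value of Adamts1 was below every BMEL WT value, and the fall was called in RasLOW (log2 fold change -3.06, adjusted p = 0.0429) and missed the threshold in RasHIGH (-3.67, adjusted p = 0.0533). Adamts14, which trims procollagen, was at 2.31, 1.16 and 1.18 CPM (BMEL WT), 0.994, 1.01 and 0.525 CPM (RasLOW) and 0.525, 0.342 and 0.269 CPM (RasHIGH) and was called in RasHIGH (log2 fold change -2.05, adjusted p = 0.0192). The last call was lost without BMEL WT replicate 1 (adjusted p = 0.0519), RasHIGH replicate 2 (0.0708) or RasHIGH replicate 3 (0.0639).

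The other members tested in cultured cells were not called. Mmp14 (chr14:55050441-55060095) was at 453, 245 and 248 CPM (BMEL WT), 289, 374 and 251 CPM (RasLOW) and 287, 196 and 187 CPM (RasHIGH), with overlapping groups. Mmp15, another membrane-type enzyme, was at 38.9, 25.8 and 35.3 CPM, 7.21, 31.9 and 13.3 CPM and 23.8, 7.57 and 8.35 CPM in the same order of groups, and its difference in RasHIGH missed the threshold (log2 fold change -1.37, adjusted p = 0.0665). Mmp11 was at 23.3, 20.2 and 20.7 CPM (BMEL WT), 9.41, 33 and 13.4 CPM (RasLOW) and 21.2, 9.71 and 12.8 CPM (RasHIGH). Ranges also overlapped for Mmp28, at 13.6, 8.41 and 13 CPM, 9.91, 20.9 and 13 CPM and 23.8, 9.37 and 11.3 CPM in that order. Adamts10 was at 3.9, 7.97 and 11.2 CPM, 7.03, 9.5 and 6.22 CPM and 9.86, 12.2 and 10.5 CPM, Adamts6 at 2.76, 3.49 and 2.66 CPM, 1.1, 2.57 and 0.928 CPM and 1.09, 1.63 and 3.01 CPM, and Adamts7 at 3.56, 0.958 and 1.22 CPM, 1.07, 1.2 and 0.727 CPM and 1.12, 0.77 and 0.763 CPM. Mmp19 was at 2.63, 0.752 and 1.66 CPM, 0.284, 2.44 and 0.242 CPM and 2.81, 0.599 and 0.359 CPM, and its ranges overlapped too.

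Between RasHIGH and RasLOW no member was called among 18 tested, where 0.0752% of all genes were. By edgeR's quasi-likelihood test 8 members had an unadjusted p under 0.05, and DESeq2 called 5, namely Timp3, Mmp10, Mmp24, Mmp13 and Adamts4. Their log2 fold changes were -4.44 for Timp3, 4.45 for Mmp10, -2.44 for Mmp24, 2.52 for Mmp13 and 1.54 for Adamts4, with adjusted p-values of 0.103, 0.175, 0.175, 0.345 and 0.225 by edgeR. The RasHIGH levels of Timp3, Mmp10, Mmp24 and Adamts4 did not overlap with those of RasLOW, whereas those of Mmp13 did. BMEL WT replicates 1 and 2 were sequenced on lane 3 and the other cultured libraries on lane 4. With lane 4 alone, which leaves a single BMEL WT library, 0 members were called in RasLOW and 2 in RasHIGH. Each of the 6 RasLOW calls was lost without at least 2 of the 6 libraries, left out one at a time, at adjusted p-values of 0.0506 to 0.146. The RasLOW count was 2, 1 and 1 without BMEL WT replicate 1, 2 and 3, and 2, 10 and 1 without RasLOW replicate 1, 2 and 3.

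Of 61 further genes of matrix proteolysis, 38 were tested in each comparison with BMEL WT, and 1 was called higher and 3 lower in RasLOW, where 0.626% and 2.71% of all genes were. In RasHIGH 5 were called higher and 6 lower, beside 3.71% and 6.06% of all genes. Some of these genes belong to the plasminogen system, which activates several Mmp proenzymes. Serpine2, an inhibitor of plasminogen activators, averaged 9.71 ± 9.94 CPM in BMEL WT and 0.0454 ± 0.0394 CPM in RasLOW (SD, n = 3) and had no read in RasHIGH, at least 71.9-fold below the controls (adjusted p = 0.0111). Without BMEL WT replicate 1, which had the highest level, this bound was 29.4-fold. Serpinf2, the plasmin inhibitor, fell in RasLOW (log2 fold change -3.69, adjusted p = 0.0157) and RasHIGH (-2.88, adjusted p = 0.00727). Acan, the aggrecan that Adamts enzymes cut, rose from 4.68 ± 0.326 CPM to 46.4 ± 41.2 CPM in RasLOW (log2 fold change 3.26, adjusted p = 0.0262) and 74 ± 23.6 CPM in RasHIGH (3.94, adjusted p = 0.000231). Pcsk5, a convertase, fell in RasHIGH (log2 fold change -5.90, adjusted p = 0.00129). Not called in either population were Reck, the membrane-anchored Mmp inhibitor (0.65 and -1.02), Plau (-0.48 and -0.86), its receptor Plaur (-0.22 and 0.01), the convertase Furin (0.36 and 0.56) and the Mmp inducer Bsg (-0.13 and -0.33), given as log2 fold changes in RasLOW and RasHIGH. None of the list was called between RasHIGH and RasLOW among 35 tested by edgeR (0.0752% of all genes were), although 9 had an unadjusted p under 0.05, and these 5 genes had log2 fold changes between -1.65 for Reck and 0.24 for Plaur.

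In the tumour cells, liver and peritoneal sites differed in few members, all lower in the liver. Of 27 members tested, 3 were called lower in liver tumour cells and 0 higher, where 0.765% of all genes were called lower and 0.382% higher, and the median log2 fold change was -0.43 beside -0.01 over all genes. Mmp2 was at 1.62, 1.37, 0.899 and 0.923 CPM in the liver tumour cells of mice 1 to 4 and at 23.7, 6.32, 6.94 and 3.46 CPM in their peritoneal tumour cells. The groups did not overlap, and the value of mouse 1 in the peritoneum was the highest (log2 fold change -3.07, SE 0.562, adjusted p = 0.0243). Adamts2, the main enzyme that removes the amino-terminal propeptide of type I procollagen, was at 1.08, 0.725, 0.629 and 0.732 CPM in the liver and 14, 4.02, 2.71 and 1.98 CPM in the peritoneum, again without overlap (log2 fold change -2.84, SE 0.597, adjusted p = 0.0339). Adamts9 was at 0.135, 0.139, 0.18 and 0.223 CPM in the liver, against 3.67, 0.54, 0.648 and 0.698 CPM in the peritoneum, and was lower in the liver (log2 fold change -3.03, SE 0.696, adjusted p = 0.047). With 24 reads in all liver tumour libraries, Adamts9 passed the filter through the peritoneal tumour cells alone.

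All 3 genes were highest in the peritoneal tumour library of mouse 1, the library that also held the most fibroblast, macrophage and neutrophil markers. Without it, 3 members were still called and the log2 fold changes were -2.20 for Mmp2, -1.86 for Adamts2 and -1.88 for Adamts9. Over all 4 mice, fibroblast markers were lower in liver than in peritoneal tumour cells for 7 of 7 genes, with summed levels of 40.3 to 61.7 CPM against 211 to 1450 CPM, and their part in the result was not tested. With the mouse as a block, 1 member, Mmp2, was called, and Adamts2 (adjusted p = 0.0539) and Adamts9 (0.107) were not. The count was 1 without liver tumour cells of mouse 1 and 0 without those of mouse 2, 3 or 4, where Mmp2 had adjusted p-values of 0.0594 to 0.0907. Of the 61 further genes, 1 was called higher and 3 lower in the liver among 45 tested, beside 0.382% and 0.765% of all genes, the largest being Fap, a protease of activated fibroblasts (log2 fold change -4.58, adjusted p = 0.0215), Pzp, an alpha-2-macroglobulin-like inhibitor (2.82, adjusted p = 0.027) and Serpine2 (-2.81, adjusted p = 0.0366). Pzp was higher in liver tumour cells, as were 5 of 6 hepatocyte markers on average, with summed levels of 10.6 to 49.1 CPM against 1.09 to 10.4 CPM in peritoneal tumour cells, and their part in the level of Pzp was not tested. Reck (-1.29), Plau (-0.60), Plaur (-0.07), Bsg (0.09) and Furin (0.15) were not called on the log2 scale between sites.

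Stromal cells differed from tumour cells of the same site in most members, and nearly always by being higher. In the liver 24 of 36 members tested were called higher and 4 lower in stromal cells, where 27.5% of all genes were called higher and 16.4% lower. In the peritoneum 33 of 39 were called higher and 2 lower, where the shares of all genes were 27.4% and 16.2%. Members with few or no reads in tumour cells were tested through stromal cells alone and could hardly be called lower. Examples are Adamts16, without a read in liver tumour cells, and Adamts18 and Mmp27, with 2 reads each in peritoneal tumour cells. This weighs on the counts and medians of the members. The median log2 fold change of the members was 3.75 in the liver and 5.01 in the peritoneum, beside -0.00 and -0.07 over all genes. In sorted populations as in any bulk sample, fewer cells of a type and less RNA per cell cannot be told apart. Stromal and tumour cells of a site were taken from the same mice.

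Between the sites, the stroma of the liver tumours held less of most members than the stroma of the peritoneal tumours. Of 40 members tested, 26 were called lower in liver stromal cells and 1 higher, where 9.98% of all genes were called lower and 3.36% higher. Adamts18, without a read in liver stroma, and Adamts19, with 10 reads there, passed the filter through peritoneal stroma alone and could hardly be called higher. By family, 8 of 18 Mmp, 16 of 19 Adamts and 2 of 3 Timp genes tested were called lower. The median log2 fold change of the members was -1.53, beside 0.02 over all genes. Fibroblast markers moved with this difference, with 7 of 7 lower in liver stroma, all 7 with reads at both sites, and summed levels of 4140 to 8420 CPM in the liver against 54000 to 82000 CPM in the peritoneum. Macrophage markers summed to 3520 to 4190 CPM in liver stroma and 2450 to 4380 CPM in peritoneal stroma, with 2 of 6 higher and 4 of 6 lower in the liver on average. The part of these populations in the differences below was not tested.

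**Figure D3:**
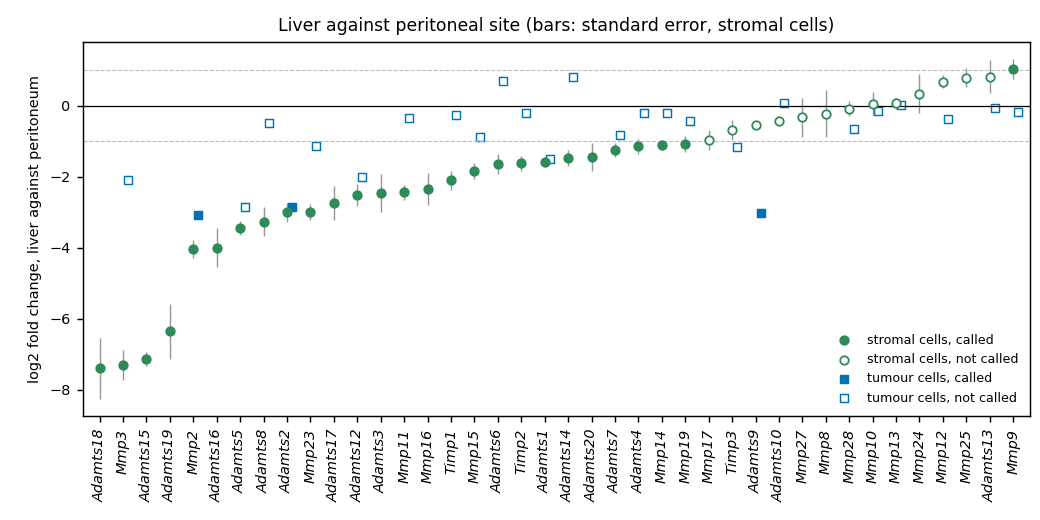
Log2 fold change between the liver and the peritoneal site for the 40 members tested in stromal cells (circles, with bars for the standard error, n = 4 mice per site) and for those also tested in tumour cells (squares), with filled symbols for called genes and dashed lines at the threshold of 1. In stromal cells 26 genes are called below 0 and Mmp9 above it, while Mmp2, Adamts2 and Adamts9 are called in tumour cells. Adamts18 had no read in liver stroma, so its point is a fitted value and no bound.

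Of the gelatinases, Mmp2 and Mmp9 moved in opposite directions between the stromal sites. Mmp2 was at 79.4, 57.6, 68.5 and 38.8 CPM in liver stromal cells of mice 1 to 4 and at 896, 988, 1290 and 702 CPM in peritoneal stromal cells, where it was lower in the liver in 4 of 4 mice (log2 fold change -4.03, SE 0.262, adjusted p = 6.31e-06). Stromal cells exceeded tumour cells in both places, by a log2 fold change of 5.63 in the liver and 6.48 in the peritoneum. Mmp9 (chr2:164766280-164781350), the gelatinase of neutrophils and macrophages, was at or under 0.404 CPM in the cultured libraries, at 1.51, 1.45, 2.94 and 2.1 CPM in liver tumour cells and at 4.97, 1.32, 1.37 and 1.29 CPM in peritoneal tumour cells. Its stromal values were 562, 283, 634 and 316 CPM in the liver and 278, 198, 141 and 232 CPM in the peritoneum, without overlap. Mmp9 was the only member called higher in liver stroma (log2 fold change 1.04, SE 0.287, adjusted p = 0.0198), and with the mouse as a block the log2 fold change was 0.99 (adjusted p = 0.0364) and the call was lost. It was also lost without liver stromal replicate 1 or 3 or peritoneal stromal replicate 2 or 3, at adjusted p-values between 0.0525 and 0.054. Neutrophil markers summed to 928 to 1680 CPM in liver stroma, and to 317 to 332 CPM in the peritoneal stroma of mice 2 to 4 and 4540 CPM in that of mouse 1, without which the log2 fold change of Mmp9 was 1.18 (adjusted p = 0.0172).

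The collagenases Mmp13 and Mmp8 and the elastase Mmp12 were not called between the stromal sites, and all 3 were higher in stromal than in tumour cells. Mmp13 was at 34.3, 36.4, 22.5 and 21.3 CPM in liver tumour cells, 21.7, 28.6, 12.4 and 50.4 CPM in peritoneal tumour cells, 369, 295, 350 and 261 CPM in liver stromal cells and 255, 264, 285 and 379 CPM in peritoneal stromal cells. Stromal values were above all tumour values, and the sites overlapped in both populations, with a log2 fold change of 0.07 (SE 0.152) between the stromal sites. Mmp8 (chr9:7558429-7568486), the collagenase of neutrophils, had no read in the cultured libraries and was at or under 1.43 CPM in tumour cells, against 38, 43.9, 54.4 and 28.7 CPM in liver stroma and 136, 14.3, 19.5 and 17 CPM in peritoneal stroma. The highest peritoneal value came from mouse 1, whose peritoneal stroma also held more of all 7 neutrophil markers than that of any other mouse, and the part of these cells in it was not tested. The log2 fold change of Mmp8 between the stromal sites was -0.22 (SE 0.671). Mmp12 (chr9:7344381-7369499), the elastase of macrophages, was at or under 0.104 CPM in cultured libraries, at 2.3, 3.29, 4.25 and 4.23 CPM in liver tumour cells and 12.9, 1.65, 2.31 and 0.992 CPM in peritoneal tumour cells. In stromal cells it was at 1350, 914, 1140 and 1140 CPM in the liver and 565, 623, 607 and 973 CPM in the peritoneum, with a log2 fold change of 0.68 (adjusted p = 0.0185), under the size needed for a call. Against tumour cells Mmp12 was higher by 8.34 in the liver and 7.18 in the peritoneum on the log2 scale.

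The stromelysins took 3 different courses. Mmp3 (chr9:7445822-7455972) was at or under 0.412 CPM in cultured libraries, at 0.135, 0.558, 0.24 and 0.0955 CPM in liver tumour cells and at 2.05, 0.513, 1.45 and 0.331 CPM in peritoneal tumour cells. Its stromal values were 0.429, 1.14, 1.07 and 0.12 CPM in the liver, against 79.9, 124, 137 and 82.9 CPM in the peritoneum, and every peritoneal stromal library was above every other library of the series (log2 fold change -7.30, SE 0.43, adjusted p = 4.44e-06). Liver stroma overlapped with the tumour cells of its site (log2 fold change 1.40, adjusted p = 0.0727). Mmp10 was higher in tumour cells than in stromal cells at both sites. It was at 17.1, 34.9, 20 and 15.3 CPM in liver tumour cells, 8.21, 18.2, 18.4 and 52.8 CPM in peritoneal tumour cells, 3.89, 4.27, 2.97 and 4.29 CPM in liver stroma and 1.99, 4.09, 2.42 and 5.87 CPM in peritoneal stroma. No stromal value reached any tumour value, and the log2 fold change of stroma against tumour cells was -2.51 (SE 0.259, adjusted p = 2.84e-06) in the liver and -2.86 (SE 0.605, adjusted p = 0.00224) in the peritoneum. Mmp11, known as stromelysin-3, was at 15.2, 18.2, 21.2 and 15.4 CPM in liver tumour cells, 18.7, 21, 27.7 and 20.9 CPM in peritoneal tumour cells, 5.12, 4.27, 4.08 and 3.33 CPM in liver stroma and 23, 24.6, 26.3 and 14.5 CPM in peritoneal stroma. Liver stroma alone stood low, below the tumour cells of the liver (log2 fold change -2.06, SE 0.166, adjusted p = 3.08e-07) and the stroma of the peritoneum (log2 fold change -2.43, SE 0.21, adjusted p = 2.68e-05), while the peritoneal stroma and tumour cells did not differ detectably (log2 fold change -0.10, SE 0.2).

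**Figure D4:**
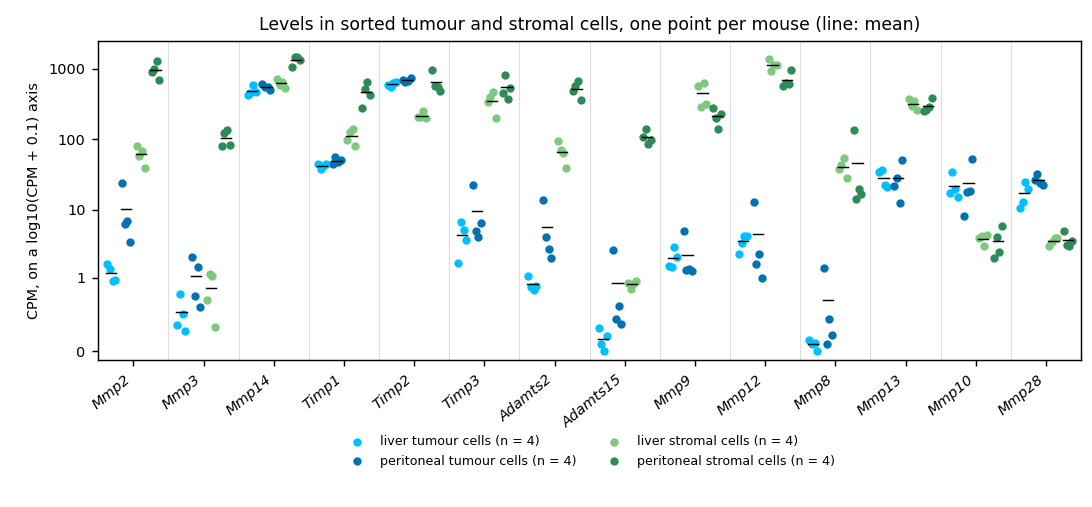
Levels (CPM, on a log10 axis with 0.1 added) of 14 members in the sorted tumour and stromal cells of both sites, with a point for each mouse (n = 4 per group) and a line at the mean. Peritoneal stroma stands above liver stroma for Mmp2, Mmp3, Timp1, Adamts2 and Adamts15, the sites overlap for Mmp13 and Mmp10, and tumour cells stand above stromal cells for Mmp10 and Mmp28.

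Of the membrane-type enzymes, Mmp14 was abundant everywhere. It was at 430, 457, 592 and 467 CPM in liver tumour cells, 607, 559, 554 and 502 CPM in peritoneal tumour cells, 721, 594, 654 and 537 CPM in liver stroma and 1060, 1450, 1440 and 1330 CPM in peritoneal stroma. Peritoneal stroma was higher than all other groups, with a log2 fold change of -1.11 (SE 0.134, adjusted p = 0.00021) for liver against peritoneal stroma. Mmp15 was at 3.65, 3.23, 7.7 and 5.25 CPM in liver tumour cells, 11.1, 9.97, 9.45 and 5.95 CPM in peritoneal tumour cells, 4.13, 2.1, 3.35 and 3.85 CPM in liver stroma and 11.6, 13.8, 11.9 and 9.09 CPM in peritoneal stroma, with liver stroma lower (log2 fold change -1.83, SE 0.222, adjusted p = 0.000226). The glycolipid-anchored Mmp25, a leukocyte enzyme, was at or under 0.933 CPM in all cultured and tumour libraries, and at 126, 53.9, 66.4 and 65.3 CPM in liver stroma and 60, 39, 33.7 and 42.3 CPM in peritoneal stroma. Its sites overlapped, with a log2 fold change of 0.79 (adjusted p = 0.0458) that was too small for a call. Mmp16 averaged 0.184 ± 0.0793 CPM in liver stroma and 0.945 ± 0.355 CPM in peritoneal stroma (SD, n = 4; log2 fold change -2.34, adjusted p = 0.00332), and Mmp17 averaged 2.62 ± 0.394 and 5.02 ± 1.84 CPM.

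Mmp19, Mmp23 and Mmp28 complete the Mmp genes above 10 CPM. Mmp19 was at 2.88, 4.07, 4.73 and 2.99 CPM in liver tumour cells, 8.08, 4.86, 2.92 and 3.9 CPM in peritoneal tumour cells, 202, 124, 210 and 185 CPM in liver stroma and 280, 384, 517 and 302 CPM in peritoneal stroma. It was lower in liver stroma (log2 fold change -1.08, SE 0.219, adjusted p = 0.00432), and the log2 fold change was -0.94 without liver stromal replicate 2, -0.89 without peritoneal stromal replicate 3 and -0.92 with lane as a factor, all 3 short of the threshold of 1. With all 25 libraries in one fit it was -1.04 and the call was lost (adjusted p = 0.104). It shares 789 exon bases with 1110012D08Rik on the opposite strand. Mmp23 did not pass 1.01 CPM in cultured libraries and was at 0.405, 0.837, 0.36 and 0.446 CPM in liver tumour cells, 1.65, 0.891, 0.686 and 1.25 CPM in peritoneal tumour cells, 5.82, 6.93, 9.75 and 4.81 CPM in liver stroma and 46.7, 59.8, 63.5 and 42.8 CPM in peritoneal stroma, without overlap of the stromal sites (log2 fold change -3.00, SE 0.226, adjusted p = 1.23e-05). Mmp28, an epithelial enzyme also called epilysin, was at 10.5, 13.1, 24.8 and 19.9 CPM in liver tumour cells, 26.9, 32.5, 23.9 and 22.7 CPM in peritoneal tumour cells, 2.98, 3.38, 3.87 and 3.93 CPM in liver stroma and 5.01, 3.09, 2.98 and 3.57 CPM in peritoneal stroma. Like Mmp10, it was lower in stromal than in tumour cells in the liver (log2 fold change -2.28, SE 0.257, adjusted p = 6.16e-06) and the peritoneum (log2 fold change -2.95, SE 0.203, adjusted p = 4.36e-06). Epithelial markers summed to 1220 to 1550 CPM in liver stroma and 675 to 1110 CPM in peritoneal stroma. The part of epithelial cells in the stromal levels of Mmp10 and Mmp28 was not tested. Mmp27 averaged 1.6 ± 1.12 and 1.97 ± 1.09 CPM in liver and peritoneal stroma (SD, n = 4) and at most 0.0899 CPM in any other library.

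The procollagen-trimming Adamts2, Adamts3 and Adamts14 were all lower in liver stroma. Adamts2 did not pass 0.406 CPM in cultured libraries, and was at 94.3, 70.7, 64.1 and 39.9 CPM in liver stroma and 491, 577, 663 and 366 CPM in peritoneal stroma (log2 fold change -3.00, SE 0.274, adjusted p = 3.78e-05). Adamts3 was at or under 0.218 CPM in cultured and tumour libraries, at 1.42, 5.01, 3.87 and 3.05 CPM in liver stroma and at 9.55, 21.4, 32.7 and 6.94 CPM in peritoneal stroma (log2 fold change -2.45, SE 0.53, adjusted p = 0.00608). Adamts14 was also present in every tumour library, with 16.6, 14.7, 7.1 and 19.4 CPM in liver tumour cells and 7.49, 13.7, 7.32 and 4.37 CPM in peritoneal tumour cells, beside 10.3, 14.1, 15 and 15.4 CPM in liver stroma and 30.7, 56, 28.1 and 32.6 CPM in peritoneal stroma. Liver tumour and stromal cells overlapped for Adamts14 (log2 fold change -0.09, SE 0.256), whereas peritoneal stroma was above peritoneal tumour cells (log2 fold change 2.06, SE 0.363, adjusted p = 0.000784).

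The proteoglycan-cutting Adamts1, Adamts4, Adamts5, Adamts9, Adamts15 and Adamts20 were called higher in stromal than in tumour cells at both sites, and all but Adamts9 were lower in liver than in peritoneal stroma. Adamts1 was at 2.48, 2.23, 5 and 3.15 CPM in liver tumour cells, 16, 2.59, 1.83 and 15.7 CPM in peritoneal tumour cells, 107, 122, 113 and 81.5 CPM in liver stroma and 300, 327, 345 and 264 CPM in peritoneal stroma (log2 fold change -1.59, SE 0.139, adjusted p = 2.93e-05 between the stromal sites). Adamts4 was at 7.58, 8.23, 6.68 and 9.01 CPM in liver tumour cells, 13.9, 8.4, 4.71 and 8.93 CPM in peritoneal tumour cells, 112, 108, 69.3 and 75.5 CPM in liver stroma and 140, 244, 220 and 176 CPM in peritoneal stroma (log2 fold change -1.14, SE 0.212, adjusted p = 0.00286). For both genes every stromal library exceeded every tumour library. Adamts5 was at 0.338, 0.0558, 0.36 and 0.159 CPM in liver tumour cells, 5.04, 0.216, 0.438 and 1.03 CPM in peritoneal tumour cells, 14.1, 18.5, 14.8 and 13.5 CPM in liver stroma and 204, 178, 119 and 142 CPM in peritoneal stroma, with a log2 fold change of -3.44 (SE 0.186, adjusted p = 3.28e-06) for liver against peritoneal stroma. Adamts15 was the member of this group with the widest gap between sites. It was at 0.113, 0.0279, 0 and 0.0636 CPM in liver tumour cells, 2.64, 0.189, 0.343 and 0.147 CPM in peritoneal tumour cells, 0.831, 0.676, 0.795 and 0.882 CPM in liver stroma and 108, 142, 87 and 98.6 CPM in peritoneal stroma, a 137-fold ratio of the stromal means (log2 fold change -7.13, SE 0.2, adjusted p = 6.68e-08). Adamts9, in contrast, was at 31.4, 38.2, 29.8 and 30 CPM in liver stroma and 46.8, 47.4, 41.5 and 45.4 CPM in peritoneal stroma, with a log2 fold change of -0.53 (adjusted p = 0.00348) that was too small for a call. Adamts8 and Adamts20, both under 6 CPM in every library, averaged 0.46 ± 0.269 and 0.668 ± 0.242 CPM in liver stroma and 4.39 ± 1.34 and 1.76 ± 0.646 CPM in peritoneal stroma (SD, n = 4). Both were called lower in the liver (log2 fold change -3.26 and -1.44).

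Adamts7 and Adamts12, which cut cartilage oligomeric matrix protein, followed the same order. Adamts7 was at 1.51, 2.12, 1.2 and 1.81 CPM in liver tumour cells, 1.99, 3.65, 2.12 and 4.12 CPM in peritoneal tumour cells, 11.1, 16.6, 13.8 and 9.38 CPM in liver stroma and 21.8, 35.7, 32 and 28 CPM in peritoneal stroma (log2 fold change -1.25, SE 0.205, adjusted p = 0.00134 between the stromal sites). It shares 122 exon bases with Tbc1d2b on the opposite strand, which averaged 121 CPM in liver stroma and 172 CPM in peritoneal stroma. Adamts12 was at or under 0.224 CPM in cultured libraries, at 0.135, 0.446, 0.18 and 0.35 CPM in liver tumour cells, 2.61, 0.702, 0.667 and 0.441 CPM in peritoneal tumour cells, 21.1, 21.3, 6.98 and 13 CPM in liver stroma and 77.8, 105, 83 and 82.9 CPM in peritoneal stroma (log2 fold change -2.52, SE 0.31, adjusted p = 0.000241). Among the Adamts genes whose substrates are less well known, Adamts6 was at 9.97, 7.42, 6.41 and 7.67 CPM in liver tumour cells, 4.13, 5.94, 5.36 and 3.9 CPM in peritoneal tumour cells, 7.05, 6.47, 5.22 and 4.73 CPM in liver stroma and 11.1, 26.2, 20.3 and 13.7 CPM in peritoneal stroma. Peritoneal stroma was the highest for Adamts6 and liver stroma lay below it (log2 fold change -1.64, SE 0.27, adjusted p = 0.00138). Adamts10 was at 18.6, 19.2, 14.9 and 17.7 CPM in liver tumour cells, 9.76, 20.1, 14.6 and 22.9 CPM in peritoneal tumour cells, 42.1, 44.1, 41.5 and 43 CPM in liver stroma and 47.3, 66.9, 59.1 and 49.6 CPM in peritoneal stroma, with a log2 fold change of -0.43 between the stromal sites and no call.

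Adamts16, Adamts18 and Adamts19 had no read in any cultured library or in liver tumour cells. Adamts16 was at 0.591, 0.351, 0.324 and 0.0368 CPM in peritoneal tumour cells, 2.74, 1.56, 1.21 and 0.802 CPM in liver stroma and 12.7, 35.8, 40.1 and 10.9 CPM in peritoneal stroma, without overlap (log2 fold change -3.99, SE 0.536, adjusted p = 0.000418). In the liver it was at least 16.5-fold higher in stromal than in tumour cells, set against 3 reads in a library. Adamts19 averaged 0.0789 ± 0.0769 CPM in liver stroma and 6.94 ± 3.77 CPM in peritoneal stroma (SD, n = 4), and Adamts17 averaged 0.594 ± 0.381 and 3.9 ± 1.55 CPM, both called lower in the liver (log2 fold change -6.35 and -2.73). Adamts18 was counted in peritoneal stroma (0.743 ± 0.31 CPM) and not in liver stroma, at least 6.19-fold below (adjusted p = 0.000901).

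Among the inhibitors, Timp1 and Timp2 were lower in liver stroma and Timp3 was not called. Timp1 (chrX:20447292-20451861) was at 44.6, 37.8, 41.8 and 44.2 CPM in liver tumour cells, 45.4, 55.8, 47.6 and 51.1 CPM in peritoneal tumour cells, 99.4, 129, 138 and 80.8 CPM in liver stroma and 277, 508, 655 and 428 CPM in peritoneal stroma. The 4 groups did not overlap, and liver stroma was lower than peritoneal stroma in 4 of 4 mice (log2 fold change -2.10, SE 0.265, adjusted p = 0.000283). Timp2 (chr11:118162383-118217054) was at 595, 543, 627 and 645 CPM in liver tumour cells, 697, 645, 662 and 734 CPM in peritoneal tumour cells, 205, 207, 252 and 198 CPM in liver stroma and 963, 574, 546 and 489 CPM in peritoneal stroma. Liver stroma was the low group for Timp2, below liver tumour cells (log2 fold change -1.49, SE 0.0996, adjusted p = 5.53e-08) and below peritoneal stroma (log2 fold change -1.62, SE 0.203, adjusted p = 0.000276), while peritoneal stroma and tumour cells did not differ detectably (log2 fold change -0.19, SE 0.202). Timp3 was at 1.71, 6.72, 5.09 and 3.69 CPM in liver tumour cells, 22.9, 4.97, 4.02 and 6.54 CPM in peritoneal tumour cells, 334, 396, 469 and 200 CPM in liver stroma and 451, 808, 374 and 541 CPM in peritoneal stroma. Every stromal value of Timp3 was above every tumour value, by a log2 fold change of 6.35 at the liver site and 5.73 at the peritoneal site, and the stromal sites overlapped (-0.68, adjusted p = 0.1). Its tumour cell levels lay between 1.71 and 22.9 CPM, beside 2.96 to 5.12 CPM in cultured RasHIGH cells and 205 to 425 CPM in BMEL WT, without a test between cultured and sorted cells.

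Whether the site acted differently on stromal and on tumour cells was asked with an interaction term over the 16 sorted libraries. It was called for 9 of 40 members, 8 with a more negative value in stromal cells and 1 with a more positive value, where 6.46% of all genes were called. The values, the log2 difference of liver against peritoneum in stromal cells minus that in tumour cells, were -5.11 (SE 0.989, adjusted p = 0.00294) for Mmp3, -2.69 (SE 0.697, adjusted p = 0.0178) for Adamts8, -2.26 (SE 0.35, adjusted p = 0.000625) for Adamts6 and -2.20 (SE 0.479, adjusted p = 0.00644) for Adamts14. They were -2.01 (SE 0.267, adjusted p = 0.000174) for Mmp11, -1.83 (SE 0.439, adjusted p = 0.0114) for Mmp23, -1.77 (SE 0.296, adjusted p = 0.001) for Timp1 and -1.35 (SE 0.232, adjusted p = 0.00123) for Timp2. Adamts6 and Adamts14 were lower in the liver in stromal cells and, without a call, higher in the liver in tumour cells (0.70 and 0.81 on the log2 scale). Adamts9 went the other way, at 2.55 (SE 0.732, adjusted p = 0.03), as it differed between sites in tumour cells more than in stromal cells. Its tumour levels were low, with 24 reads in all liver tumour libraries and 0.54 to 3.67 CPM in the peritoneum, highest in mouse 1. Its stromal means were 32.3 CPM in the liver and 45.3 CPM in the peritoneum, and the part of stromal cells in the tumour values was not tested. The call of Adamts9 was lost without liver tumour replicate 1, 2 or 3 or peritoneal stromal replicate 2, 3 or 4 (adjusted p = 0.0551 to 0.0713), and that of Adamts8 without liver tumour replicate 4 (adjusted p = 0.0501). With all 25 libraries in one fit, the calls of Adamts8 (adjusted p = 0.146) and Mmp23 (0.0686) were lost. For Mmp2, which was lower in the liver in both populations, the interaction was -0.90 (SE 0.651, adjusted p = 0.385) and not called.

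Of the further genes of matrix proteolysis, 27 of 55 tested were called higher and 10 lower in stromal than in tumour cells in the liver, where 27.5% of all genes were called higher and 16.4% lower. They were led by Elane, the neutrophil elastase (log2 fold change 9.22), the cathepsin Ctss (8.38) and Adam19 (7.71). In the peritoneum 30 of 55 were called higher and 6 lower, beside 27.4% and 16.2% of all genes, led by A2m, a broad protease inhibitor (7.71), Pcsk5 (7.16) and the complement inhibitor Serping1 (6.78). Between stromal sites 4 were called higher and 22 lower in the liver among 55 tested, beside 3.36% and 9.98% of all genes, led by Plg, the plasminogen that hepatocytes make (7.30), Pzp (6.62) and Pcsk5 (-4.99). All 6 hepatocyte markers were also higher in liver stroma, with summed levels of 44.3 to 278 CPM against 0.381 to 1.83 CPM in peritoneal stroma, and their part in the level of Plg was not tested. Reck averaged 2.65 ± 0.673 CPM in liver stroma and 23.1 ± 4.78 CPM in peritoneal stroma (SD, n = 4) and was called lower in the liver (log2 fold change -3.16, SE 0.221, adjusted p = 8.65e-06). Plau averaged 254 ± 101 and 334 ± 139 CPM, Plaur 847 ± 119 and 537 ± 116 CPM, Bsg 412 ± 19 and 393 ± 20.1 CPM and Furin 561 ± 82.6 and 483 ± 82.9 CPM in liver and peritoneal stroma, with no call. Against tumour cells, Plau was called higher in stroma in both places (4.88 and 4.59), Bsg lower in both (-1.01 and -1.07) and Reck higher in both (3.38 and 5.14). Plaur was higher, just past the threshold, in the stroma of the liver and was not called in the peritoneum (0.18), while Furin was called at neither site (-0.21 and -0.37). The interaction was called for 14 of 57 of these genes (6.46% of all genes), 1 more positive and 13 more negative in stromal cells, led by Adamtsl3 (-5.97), Pzp (3.89) and A2m (-3.01).

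The remaining 7 members, Adamts13, Mmp1a, Mmp1b, Mmp20, Mmp21, Mmp7 and Timp4, were called in no pairwise comparison and did not exceed 0.842 CPM in any library. With Mmp16 and Adamts18, 9 of the 46 genes averaged under 1 CPM in each of the 7 groups.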

How the data were processed

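Polyadenylated RNA of 25 libraries had been sequenced on a HiSeq 2500, and the authors deposited raw counts of reads per gene in a single table, aligned with TopHat2 to build mm9 by the methods of the study. The submitters' notes list Bowtie 0.12.2 and FastQC and other builds, and the counter, its strand setting and its annotation are not given in the sources used here. Totals ran from 20818989 to 51241336 reads per library, and intervals and floors cover counting error only. Groups were taken from the sample labels. Gene positions are those of the mm9 annotation (GENCODE vM1) and promoter windows those of RefSeq on GRCm38.p6.

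The counts were tested with edgeR 4.0.16 in R 4.3.3 (quasi-likelihood test, filterByExpr with a count minimum of 10, TMM, Benjamini-Hochberg adjustment over all genes tested), with the libraries of the compared groups in each fit and all 16 sorted libraries in the interaction. Alternatives were DESeq2 1.42.0, relative log expression (RLE) size factors, no filter and all 25 libraries in one fit. Others were a replicate block, lanes, and each library left out in turn. A further alternative set the study's p cut-offs (0.01 in cultured and 0.05 in sorted cells) on unadjusted p in place of adjusted p. The study writes them as p-values and heads the p columns of a gene list as adjusted. The fit was tested on simulated counts with log2 changes of 2.5 in 200 well-counted genes, a single spread for all genes and independent libraries. It found 199 in RasHIGH against BMEL WT, 200 between tumour sites and 192 for the interaction, with 1, 7 and 8 false calls. Members with few reads or a wide spread are outside these settings. Medians of the members stay the same with genes without reads set at their bounds.

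Members called in at least 1 pairwise comparison with a mean of at least 10 CPM in a group are given in every library where they were not near 0, other called members by means, and the rest by ranges. The further genes are named where they were called and among the 3 largest in a comparison, with Reck, Plau, Plaur, Bsg and Furin in any case. A further gene under this rule is not reported here. Members and lists were chosen with earlier results of these data known. Same-numbered sorted libraries came from 1 mouse. The deviations from the group means of such libraries correlated at -0.16 to 0.339, and the block is given where it changed a call or a count. Sequencing lanes were partly shared between groups, with mouse 1 on lane 1, mouse 3 on lane 2, mouse 4 on lane 3 and the liver and peritoneal libraries of mouse 2 on lanes 1 and 2.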

Additional observations from a re-analysis of the deposited data

Results flagged for a closer look

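In each group of 4 mice the levels of members averaging at least 1 CPM were examined for a mouse far from the other 3 by Dixon's ratio, over 110 groups of values, and 12 exceeded the 95% critical value for 4 values. The rate of about 1 in 20 by chance holds for independent, normally distributed values. The members share their libraries, so that rate is no measure for the 12. The peritoneal tumour cells of mouse 1 accounted for 7 of the 12, with Mmp9 at 4.97 CPM against 1.29 to 1.37 CPM in the other mice, Mmp12 at 12.9 CPM against 0.992 to 2.31 CPM and Timp3 at 22.9 CPM against 4.02 to 6.54 CPM. In the same library Adamts2 stood at 14.0 CPM, Adamts5 at 5.04 CPM, Adamts9 at 3.67 CPM and Adamts12 at 2.61 CPM, against at most 4.02, 1.03, 0.698 and 0.702 CPM elsewhere in the group. This library had the highest fibroblast (1450 CPM), macrophage (166 CPM) and neutrophil (85.3 CPM) marker sums of its group, and their part in these values was not tested.

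In the peritoneal stroma Mmp8 stood at 136 CPM and Mmp27 at 3.59 CPM in mouse 1, against 14.3 to 19.5 CPM and 1.23 to 1.59 CPM in the other mice, in the library whose neutrophil markers summed to 4540 CPM. Mmp12 stood at 973 CPM in mouse 4 against 565 to 623 CPM, and Adamts14 at 56.0 CPM in mouse 2 against 28.1 to 32.6 CPM. Timp2 stood at 252 CPM in the liver stroma of mouse 3 against 198 to 207 CPM.

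The effect of the site differed between stromal and tumour cells for 9 members by the interaction term of edgeR's quasi-likelihood test, with log2 values of -5.11 for Mmp3, -2.69 for Adamts8, -2.26 for Adamts6, -2.20 for Adamts14, -2.01 for Mmp11, -1.83 for Mmp23, -1.77 for Timp1, -1.35 for Timp2 and 2.55 for Adamts9. The median of this value over all genes was 0.12.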

How the results depend on the processing

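The alternatives were followed for 132 pairs of a member and a comparison that were called or, in a pairwise comparison, past the fold threshold. Smaller differences, which could change sign more easily, were left out. Of the 1999 values obtained, 1888 kept direction and call, 80 calls were lost, 31 were gained and 0 changed sign. The alternative with unadjusted p uses the fold changes of the main fit, so it cannot change a sign. The counts of members called between stromal sites, between stromal and tumour cells at both sites and for the interaction stayed within 1.5 times of those given under every alternative run. In RasLOW against BMEL WT the count of 6 became 3 with the replicate block and 0 with lane 4 only, and ranged from 1 to 10 with a library left out. In RasHIGH against BMEL WT the count of 9 became 2 with lane 4 only. Lane 4 leaves 1 BMEL WT library, which is assumed to vary like the RasLOW or RasHIGH libraries, so that fewer samples are compared. Between RasHIGH and RasLOW the count of 0 became 4 with the study's p cut-off set on unadjusted p and 5 with DESeq2. It became 1 (Timp3) with no filter and 7 with all 25 libraries in one fit. Between tumour sites the count of 3 became 8 with the unadjusted p threshold, 5 with DESeq2, 5 with all 25 libraries and 1 with the replicate block, and ranged from 0 to 3 with a library left out. The cause was not tested. The labels do not say whether cultured libraries with the same replicate number belong together. Their deviations from the group means correlated at -0.676 to 0.344. Those of sorted libraries from 1 mouse correlated at -0.16 to 0.339, so such correlations cannot settle it.

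The summed level of the members in peritoneal stroma was 6630 CPM when scaled by library total alone. RLE moved the median of all genes in peritoneal stroma against tumour cells from -0.07 to 0.07. DESeq2 gave no adjusted p for Mmp8 and Mmp12 in that comparison. Members under the floor of 3 reads per library cannot be told from 0 at this depth.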
